A study of Xenopus tropicalis with 18 samples.

Results

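The comparison set untreated TRβ knockout tadpoles (TRβKO) against untreated wild-type tadpoles of Xenopus tropicalis, a frog whose metamorphosis is driven by thyroid hormone. It used 6 of the 18 libraries of the series, 3 of each group, chosen by their labels for genotype and treatment. Chromatin was taken from whole intestine at stage 54 and immunoprecipitated with an antibody against thyroid hormone receptor (TR), and the DNA was sequenced (ChIP-seq). Neither group received the hormone T3. The other groups were wild type and TRβKO given 10 nM T3 for 18 h, and TRα knockout (TRαKO) without and with T3. The reads of each library were counted in 9867 genomic regions, of which 9342 held enough reads to be tested and 525 did not. The series describes the 3 libraries of a group as biological replicates from different tadpoles. How the knockout was made, which part of the gene was deleted and whether animals were pooled are not given in the sources used here. The counted regions do not show the deletion, so the genotype labels could not be checked at the targeted gene, and ChIP-seq holds no expression of intestinal markers against which to check the tissue.

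TRα and TRβ are nuclear receptors, encoded by thra and thrb, that bind DNA at thyroid hormone response elements, usually as heterodimers with a retinoid X receptor. Bound without hormone, they recruit corepressor complexes, and with T3 they exchange these for coactivators. In the tadpole intestine T3 starts the death of the larval epithelium and the growth of the adult one from stem cells, and thrb is itself a T3-induced gene in frogs. By its label TRβKO leaves TRα for a TR antibody to find, which the counts do not check.

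The libraries of the 2 groups differed in more than genotype. Tags are aligned reads. Wild-type libraries held 13.7, 17.1 and 12.4 M tags after the duplicate filter and TRβKO libraries 5.47, 5.80 and 5.22 M. Redundant tags made up 2.2 to 2.97% of wild-type and 10.5 to 14.6% of TRβKO libraries, and the fragment length estimated by the peak caller was 255 to 283 bp against 297 bp in each TRβKO library. Untreated TRαKO libraries, set beside TRβKO below, held 7.49 to 9.28 M tags. Their redundant tags were 10.2 to 10.4% and their fragment lengths 295 to 296 bp, nearer to TRβKO than to wild type. Levels are given in CPM, reads in a region per 1000000 tags of that library. The part of these differences in the results below was not tested. Across the 9342 regions, Spearman correlations of CPM were 0.588 to 0.676 between wild-type libraries, 0.409 to 0.441 between TRβKO libraries and 0.163 to 0.248 between a library of each group. Depth is shared by the points of each library and differs between the groups, so these values are descriptions.

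Signal differed in both directions. In TRβKO, 193 regions were higher than in wild type (2.07% of those tested) and 176 were lower (1.88%), by edgeR's quasi-likelihood test with Benjamini-Hochberg adjustment at 0.05. The higher regions had a median level of 1.09 CPM in wild type and 3.26 CPM in TRβKO. The lower regions had medians of 2.91 and 0.681 CPM. Of the lower regions, 24 held 3 or fewer reads over the 3 TRβKO libraries together and 7 of these held none, so their fitted fold changes are not read as sizes. The median log2 fold change of all tested regions was -0.18, and 1907 regions had an unadjusted p under 0.05. All 3 TRβKO libraries lay above all 3 wild-type libraries in 1090 regions (11.7%) and below them in 1853 (19.8%).

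The split between directions depended on scaling, on the libraries fitted and on the filter. TMM scaling moved the median log2 fold change of all regions to -0.01 and gave 321 higher (3.44%) and 113 lower (1.21%) regions. DESeq2 gave 379 (4.06%) and 182 (1.95%), with a median of -0.08. Library size taken before the duplicate filter gave 126 and 289, with a median of -0.33. Whether the deposited region counts leave out duplicates, as the tags used for library size do, was not checked. With unchanged scaling, a fit of the 6 libraries alone gave 345 higher and 626 lower regions, and the 3117 regions with a mean of at least 20 reads gave 86 and 131. All 193 higher regions and 113 of the 176 lower ones kept their call under TMM, and 193 and 159 kept it under DESeq2. With the 6 libraries thinned to equal depth, 87 to 105 of the higher and 79 to 97 of the lower regions kept their call over 5 draws. Without TRβKO replicate 1, 2 or 3 the counts of higher regions were 124, 105 and 147 and of lower regions 102, 78 and 112. Without wild-type replicate 1, 2 or 3 they were 107, 104 and 121 higher, and 67, 67 and 81 lower. In each of these 6 fits 61 higher and 30 lower regions kept their call.

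**Figure D1:**
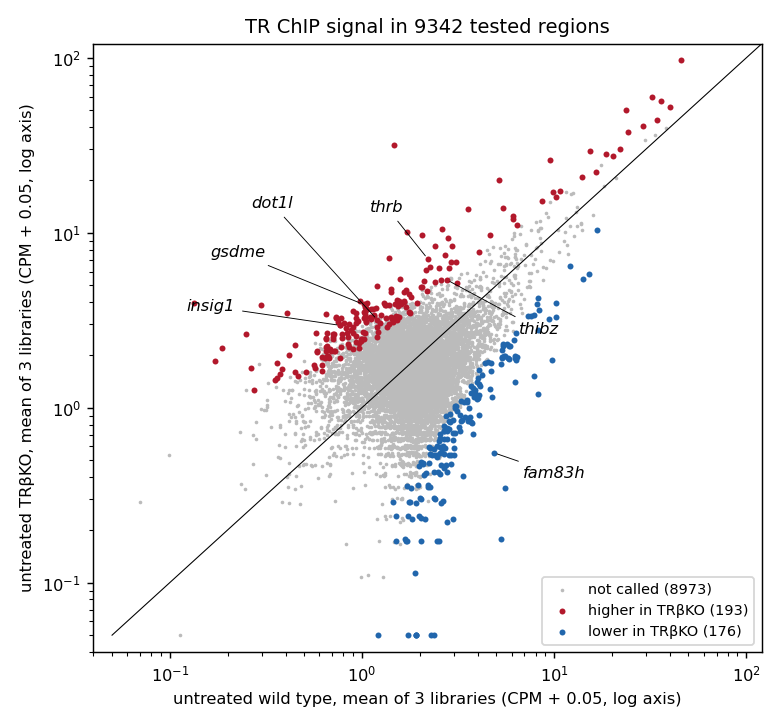
Mean TR ChIP signal of the 3 untreated TRβKO libraries (vertical) against the 3 untreated wild-type libraries (horizontal) in each of 9342 tested regions, in CPM with 0.05 added, on log axes. Red points are the 193 regions called higher in TRβKO and blue points the 176 called lower. The line marks equal levels, and 6 regions are named.

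Higher signal in TRβKO was found at the genes of the receptors themselves. The thrb region on chromosome 6 at 46932899 to 46933467, within 1 kb of a gene end, held 2.78, 2.28 and 1.38 CPM in wild type and 7.31, 8.11 and 5.75 CPM in TRβKO. The groups did not overlap, and the region rose by 1.70 ± 0.23 (SE) on the log2 scale (adjusted p = 4.19e-08). Inside the thrb gene, the region at 46698245 held 1.90, 1.64 and 2.75 CPM in wild type and 5.85, 6.04 and 6.32 CPM in TRβKO, a rise of 1.54 ± 0.28 (adjusted p = 0.00011). Both calls were kept without any 1 library. Between them, the region at 46899379 had 0.987 ± 0.410 CPM (SD, n = 3) in wild type and 1.64 ± 0.240 in TRβKO and did not pass (adjusted p = 0.262). More binding per cell and more cells with binding cannot be told apart in whole intestine, at these regions or any other.

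Of 4 tested regions inside thra, on chromosome 10, 2 passed. At 9096138 wild type held 1.83, 1.81 and 2.75 CPM and TRβKO 2.92, 4.83 and 5.94 CPM. The lowest TRβKO library lay only just above the highest wild-type one, and the rise was 1.11 ± 0.24 (adjusted p = 0.00189). Without TRβKO replicate 3 its adjusted p was 0.0564. At 9098324 the means were 0.850 ± 0.137 and 2.11 ± 0.440 CPM (log2 fold change 1.32, adjusted p = 0.0276), a call lost without TRβKO replicate 1 or 2 or wild-type replicate 1 or 2 (adjusted p up to 0.163). The other regions, at 9104506 and 9147455, had adjusted p of 0.0839 and 0.61. Over the 21 tested regions of the list of TR genes and partner proteins, 4 were higher, all of them at thra and thrb, and 1 was lower, with a median log2 fold change of 0.50. Of all 6276 tested regions with a gene, 126 (2.01%) were higher and 127 (2.02%) lower. The lower one lay in gps2, a subunit of the corepressor complex that unliganded TR recruits, with 3.79 ± 0.698 CPM in wild type and 1.11 ± 0.742 in TRβKO (log2 fold change -1.76, adjusted p = 0.0345). It was not called under TMM, nor without TRβKO replicate 2 or 3 or any wild-type replicate (adjusted p up to 0.213). Between 153447854 and 153617392 on chromosome 3, 3 of 11 tested regions were lower, that of gps2 among them, with a median log2 fold change of -1.01 over the 11.

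Among 22 regions of genes known as direct T3 targets, 7 were higher in TRβKO (31.8%) and the median log2 fold change was 0.73, beside 2.01% and -0.21 over the 6276 tested regions with a gene. None was lower in edgeR, TMM or DESeq2 after adjustment, and 1 was lower at an unadjusted p under 0.05. The 7 higher regions lay at thrb, thibz, dot1l, klf9, kdm6b and sox4. The thrb calls are those counted above among the receptor genes, and dot1l and kdm6b are counted again in the chromatin list below. The lists were chosen with earlier results of these data known, so their shares are descriptions. The thibz region on chromosome 3 at 140193300, at the gene of a T3-induced leucine zipper transcription factor of frogs, held 3.22, 2.57 and 2.35 CPM in wild type and 4.57, 4.14 and 7.28 CPM in TRβKO. It rose by 0.96 ± 0.22 (adjusted p = 0.00366), although without TRβKO replicate 3, its highest library, the adjusted p was 0.123. This region had a peak in all 6 libraries.

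At dot1l, a histone methyltransferase gene bound by TR in tadpoles, the region on chromosome 1 at 102709807 held 0.731, 1.34 and 1.38 CPM in wild type and 3.29, 3.80 and 2.3 CPM in TRβKO. The rise of 1.43 ± 0.31 (adjusted p = 0.0017) was called without any 1 library. At klf9, a zinc finger transcription factor gene and direct T3 target, the region on chromosome 1 at 129859818 rose from 1.48 ± 0.313 to 3.11 ± 1.12 CPM (log2 fold change 1.09, adjusted p = 0.0434), and the call was lost in 5 of the 6 fits without 1 library, all but that without TRβKO replicate 3 (adjusted p up to 0.299). The other klf9 region, at 129851578, did not pass (0.90, adjusted p = 0.345). At sox4, a transcription factor gene, the region on chromosome 6 at 95068614 held 1.10, 0.818 and 1.54 CPM in wild type and 3.11, 2.59 and 1.72 CPM in TRβKO (1.13, adjusted p = 0.0418). That call was lost without TRβKO replicate 1 or 2 or wild-type replicate 1 or 2 (adjusted p up to 0.206). Members of the direct-target list thus ranged from calls that held without any library to calls that rested on several.

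**Figure D2:**
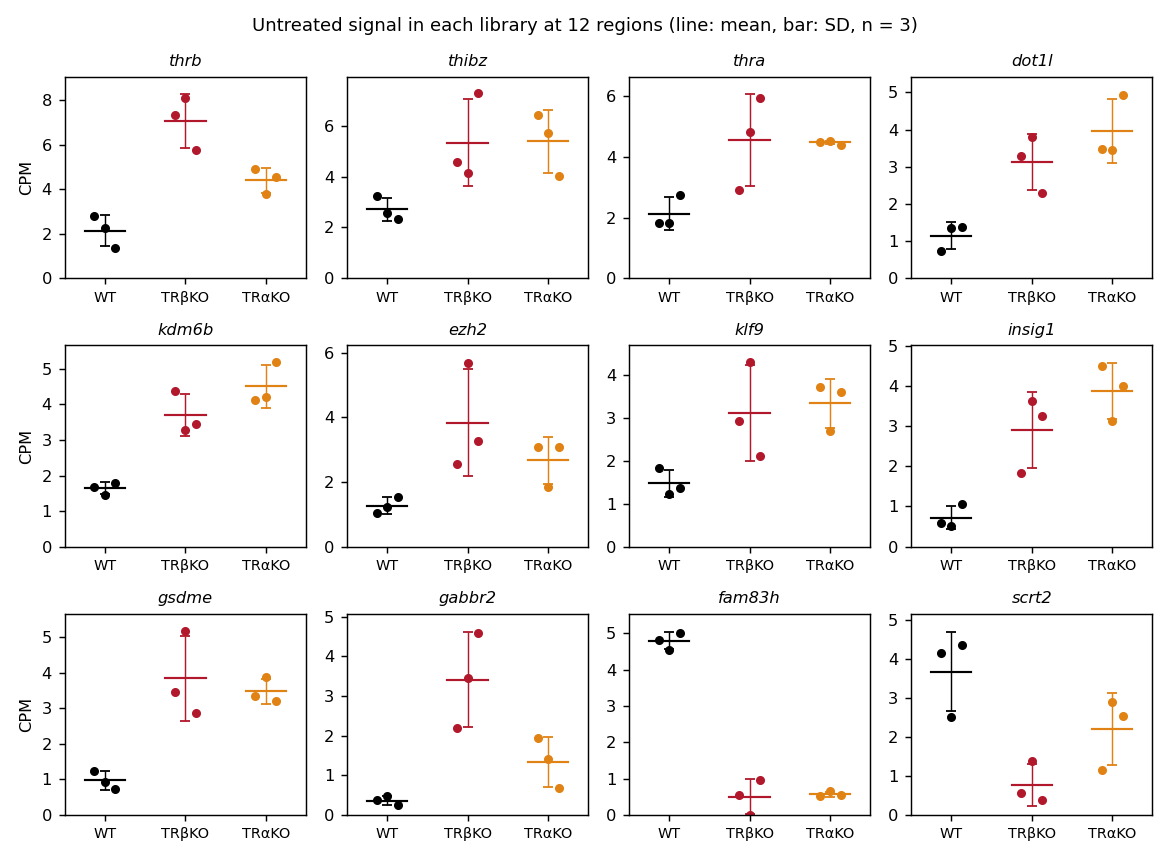
CPM in each untreated library of wild type, TRβKO and TRαKO at 12 regions, with the mean (line) and SD (bar) of 3 libraries. All 3 TRβKO libraries lie above all 3 wild-type libraries at 10 of the genes shown and below them at fam83h and scrt2.

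The chromatin list held 30 tested regions, of which 4 were higher and 1 lower (13.3% and 3.33%, beside 2.01% and 2.02% of regions with a gene), with a median log2 fold change of 0.14. Besides dot1l, the higher regions lay at kdm6b, whose enzyme removes a repressive methyl mark from histone H3, at ezh2, whose enzyme adds that mark, and at gatad2a, a subunit of the NuRD deacetylase complex. The dot1l and kdm6b calls are the same as in the direct-target list. The kdm6b region on chromosome 3 at 147034252 held 1.68, 1.46 and 1.78 CPM in wild type and 4.39, 3.28 and 3.45 CPM in TRβKO (1.17 ± 0.27, adjusted p = 0.00446). The ezh2 region on chromosome 6 at 55124943 held 1.02, 1.23 and 1.54 against 2.56, 5.69 and 3.26 CPM (1.61 ± 0.32, adjusted p = 0.000403). Neither pair of groups overlapped. The kdm6b call was lost without TRβKO replicate 1 (adjusted p = 0.0529) and the ezh2 call without TRβKO replicate 2 (adjusted p = 0.068).

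At gatad2a the region on chromosome 1 at 113759081 held 0.731, 0.643 and 0.324 CPM in wild type and 2.56, 1.21 and 0.958 CPM in TRβKO (1.42, adjusted p = 0.0498), and the call was lost in 5 of 6 fits without 1 library, all but that without TRβKO replicate 3 (adjusted p up to 0.389). The lower region lay in gatad2b, another NuRD subunit gene, with 5.34 ± 1.11 CPM in wild type and 2.2 ± 0.424 in TRβKO (-1.28, adjusted p = 0.0317). It was not called under TMM, nor without TRβKO replicate 1 or 2 or wild-type replicate 1 or 2 (adjusted p up to 0.16). Between 144098555 and 144527749 on chromosome 8, 3 of 16 tested regions were lower, that of gatad2b among them, with a median log2 fold change of -1.07 over the 16. No other region of kdm6b or ezh2 passed. The other 4 kdm6b regions had log2 fold changes from -1.25 to 0.53, and at ezh2 the region at 55124177 had 0.52 (adjusted p = 0.449).

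The remaining lists held few calls, to be read beside the 2.01% higher and 2.02% lower among regions with a gene. In the WNT list 2 of 16 regions were higher. The first lay in znrf3, a ubiquitin ligase gene that clears WNT receptors, with 0.731, 0.876 and 0.567 CPM in wild type and 2.56, 2.07 and 1.92 CPM in TRβKO (1.54 ± 0.37, adjusted p = 0.00678; 0.0556 without TRβKO replicate 1). The other lay in lgr4, an R-spondin receptor gene also on the stem cell list, with 0.877 ± 0.0663 and 2.52 ± 1.18 CPM (1.51, adjusted p = 0.0225), lost without TRβKO replicate 2 or any wild-type replicate (adjusted p up to 0.25). No region was called among 13 of other nuclear receptors (median 0.10), 8 of hedgehog and BMP (-0.32), 7 of cell death and arrest (0.70), 8 of matrix and cell surface (-0.14), 7 of other cell types (-0.06) or the 1, 2 and 2 of hormone transport, Notch and cell cycle. Of these 48 regions 6 were higher and 6 lower at an unadjusted p under 0.05 in edgeR, TMM called 1 higher and DESeq2 2 higher. At rara and nr3c2, receptor genes of retinoic acid and of corticoids, the log2 fold changes were 0.30 and 0.39 in the rara regions and 0.10 and -0.13 in the nr3c2 regions, with adjusted p from 0.513 to 0.902.

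Of 11 regions of differentiated epithelium, 1 was higher and 1 lower. The higher one lay in dpp4, a brush border peptidase gene, at 0.920 ± 0.269 CPM in wild type and 2.14 ± 0.386 in TRβKO (1.16, adjusted p = 0.0497). It was lost in 5 of 6 fits without 1 library, all but that without wild-type replicate 2 (adjusted p up to 0.168). The lower one lay in gata5, a gut transcription factor gene, at 3.66, 2.51 and 1.29 CPM in wild type and 1.10, 0 and 0.766 CPM in TRβKO (-2.00, adjusted p = 0.0375), and was lost under TMM and without TRβKO replicate 2 or 3 or wild-type replicate 1 or 2 (adjusted p up to 0.229). In the mesenchyme list 1 of 7 regions was higher, in zeb2, a transcription factor gene, at 2.36 ± 0.481 and 5.20 ± 0.928 CPM (1.14, adjusted p = 0.0456; lost without each of the 6 libraries in turn, up to 0.185).

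Over all lists together, 15 of 138 regions at 94 genes were higher and 3 were lower, against 126 and 127 of the 6276 tested regions with a gene. Under TMM the lists held 16 higher and 0 lower, against 209 and 81 of the 6276. Without TRβKO replicate 1 or 2 the higher count was 8 or 7 and without wild-type replicate 1 or 2 it was 8 or 9. The lower count was 1 without TRβKO replicate 2 or 3 and 0 without wild-type replicate 1 or 2. The counts over all tested regions in the same fits are given above.

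The largest rises at named genes were spread over other functions. Of the 64 higher regions with a gene symbol that also passed under TMM, lay at or above the median level of 1.70 CPM and had non-overlapping groups, the 12 with the largest change are named. The first was gabbr2, a subunit gene of the GABA-B receptor, where the region on chromosome 6 at 77351022 held 0.366, 0.467 and 0.243 CPM in wild type and 2.19, 3.45 and 4.60 CPM in TRβKO (3.15 ± 0.56, adjusted p = 5.58e-05). At epb41l4b, the gene of a membrane-linked cytoskeletal protein, the region on chromosome 6 at 75661148 held 1.39, 2.22 and 2.43 CPM against 10.4, 9.32 and 9.39 CPM (2.26 ± 0.33, adjusted p = 4.13e-07). Both calls were kept without any 1 library, whereas the lack of overlap between the groups was a condition of the choice. The gabbr2 region had peaks in 0 untreated wild-type libraries, 2 untreated TRβKO libraries and 1 of the 12 other libraries. For epb41l4b these numbers were 2, 3 and 6.

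Regions of 3 further genes, with peaks in 12, 9 and 10 of the other 12 libraries of the series, rose from low untreated levels. At insig1, whose product holds back sterol synthesis, the region on chromosome 6 at 16632159 held 0.585, 0.526 and 1.05 CPM in wild type and 1.83, 3.62 and 3.26 CPM in TRβKO (2.02 ± 0.36, adjusted p = 5.54e-05). At gsdme, the gene of a pore-forming protein of cell death, the region on chromosome 6 at 40970422 held 1.24, 0.935 and 0.728 against 3.47, 5.18 and 2.87 CPM (1.97 ± 0.32, adjusted p = 8.14e-06). At slc16a1, a transporter gene for lactate and other monocarboxylates, the region on chromosome 2 at 61020110 held 1.02, 1.17 and 0.809 against 4.20, 5.0 and 1.53 CPM (1.82 ± 0.32, adjusted p = 5.58e-05). All 3 calls were kept without any 1 library.

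Another 4 of the 12 were called without any 1 library. They were nipal4, a gene of a magnesium transporter family (2.09), rgs10, a regulator of G protein signalling (2.09), leng1 (1.90) and spag7 (1.85), with adjusted p from 8.14e-06 to 0.00268. The other 3 calls depended on several libraries. At zcchc8, a subunit gene of a nuclear RNA decay complex, the log2 fold change was 2.15 (adjusted p = 0.0137, and up to 0.114 without TRβKO replicate 2 or wild-type replicate 1 or 2). At ccdc172 it was 2.06 and at dlx4, a homeobox gene, 1.99, and both calls were lost in 5 of 6 fits, all but that without TRβKO replicate 1 (adjusted p up to 0.34 and 0.184). Of the 12 other libraries, 10 had a peak at spag7, 8 at leng1, 2 at nipal4, 1 each at zcchc8, ccdc172 and dlx4, and 0 at rgs10. The rgs10 region had peaks only in 2 untreated TRβKO libraries, so libraries of the higher group alone chose it for counting.

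Among the falls, the fam83h region on chromosome 6 at 153150491 was the largest of the 12 chosen by the same rule from 20. It lies in a gene linked to keratin filaments and held 4.83, 4.56 and 5.02 CPM in wild type and 0.548, 0 and 0.958 CPM in TRβKO (-3.25 ± 0.56, adjusted p = 4.06e-05). The 3 TRβKO libraries together held 8 reads there and the wild-type ones 206. At dnah2, a dynein heavy chain gene of cilia, the region on chromosome 3 at 147099298 held 4.68, 4.03 and 2.43 CPM against 0.183, 1.21 and 0.575 CPM (-2.46 ± 0.54, adjusted p = 0.00194). These 2 of the 12 falls were called without any 1 library. Untreated TRαKO held 0.565 CPM at fam83h (-3.04 against the same wild-type libraries, adjusted p = 1.64e-05) and 1.76 CPM at dnah2 (-1.09, adjusted p = 0.164). TRβKO against TRαKO did not pass at fam83h (-0.21, adjusted p = 0.956) or dnah2 (-1.36, adjusted p = 0.388).

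The other 10 had log2 fold changes from -2.40 to -1.85, and each held 9 to 18 reads over the TRβKO libraries. Calls at the potassium channel genes kcnd1 (-2.22) and kcnh6 (-2.21) were lost without TRβKO replicate 2 alone (adjusted p = 0.107 and 0.0581). At scrt2, a neural transcription factor gene, wild type held 4.17, 2.51 and 4.37 CPM and TRβKO 0.548, 1.38 and 0.383 CPM (-2.20 ± 0.53, adjusted p = 0.0063; 0.0512 and 0.0556 without TRβKO replicate 1 or 3). The calls at mdga2, slc22a13, acap1, eml2, fbrs, ftsj1 and csmd3 were lost without 2 or more libraries each, with adjusted p up to 0.167. The acap1 region also overlaps slc16a13. All 12 had peaks in 2 or 3 untreated wild-type libraries and in no untreated TRβKO library.

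What the called regions shared was seen most plainly in where peaks had been found. A peak in at least 2 libraries of T3-treated wild type, none of which entered the comparison, was present in 539 of the tested regions. Of these, 93 (17.3%) were higher in untreated TRβKO and 5 (0.928%) were lower, against 2.07% and 1.88% of all tested regions, and their median log2 fold change was 0.64. Their median level in untreated wild type was 1.08 CPM, against 1.80 CPM over all tested regions. In regions without a peak in any untreated wild-type library, chosen by compared libraries, 6.48% were higher and 0.0438% lower. The part of such choice in the shares was not tested. The 93 made up 48.2% of the higher regions, whereas the 539 made up 5.77% of those tested. With the number of T3-treated wild-type libraries holding a peak at 0, 1, 2 and 3, the share called higher was 0.964%, 3.96%, 7.83% and 23.6%.

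Summed over the 539 regions, wild-type libraries held 83.1 ± 2.45 (SD, n = 3) reads per 100000 tags and TRβKO libraries 128 ± 3.65, a ratio of 1.55 (exact two-sided permutation p = 0.1, the smallest that 3 against 3 libraries can give). Every TRβKO library lay above every wild-type library. In the other 8758 tested chromosomal regions the sum ran the other way, 1809 ± 38.0 in wild type and 1613 ± 66.9 in TRβKO (ratio 0.892, exact p = 0.1). Peaks of the compared libraries helped to choose these 8758. Of all tested regions, 4580 had a peak in at least 2 untreated wild-type libraries and 328 in at least 2 untreated TRβKO libraries. The choice thus affects the direction of that sum, which is a description only. Untreated TRαKO, which is compared with the same wild-type libraries, held 124 ± 2.91 in the 539 regions and 1486 ± 14.7 in the 8758.

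Regions with a peak in at least 2 untreated wild-type libraries and in no other library of the series numbered 2874 among those tested. In these, 2 were higher and 108 lower, with a median log2 fold change of -0.75, and the summed signal was 662 ± 7.80 reads per 100000 tags in wild type, 407 ± 4.80 in TRβKO (ratio 0.615) and 413 ± 9.09 in TRαKO. The wild-type peaks that define these regions are from libraries in the comparison, so the choice of regions affects the direction, which is a description only. By number of untreated wild-type libraries with a peak, 0 to 3, the share lower was 0.0438%, 0.403%, 2.48% and 7.09%. By number of untreated TRβKO libraries with a peak, the share higher was 1.12%, 2.85%, 15.3% and 38.4%, and the peaks that choose these regions come from compared libraries too.

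**Figure D3:**
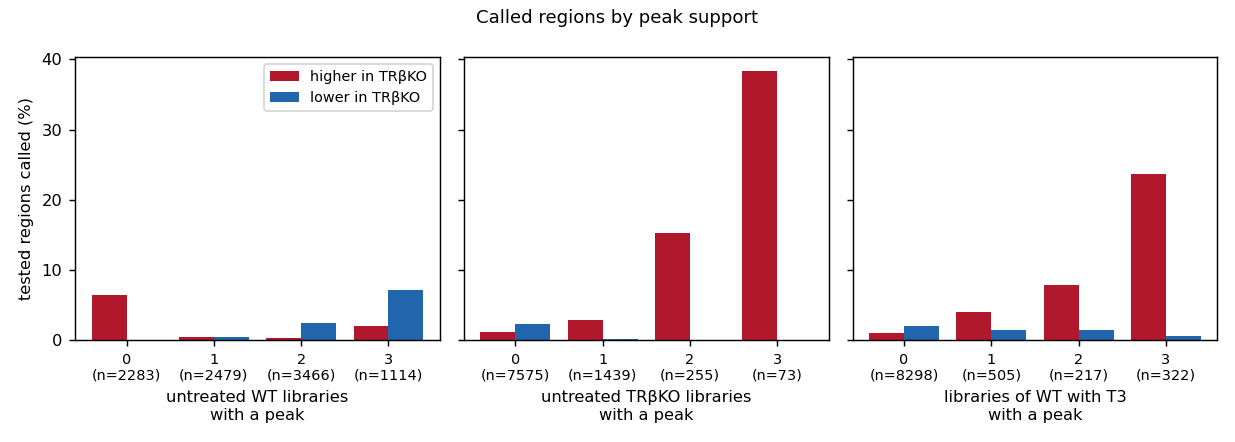
Percent of tested regions called higher (red) or lower (blue) in untreated TRβKO, by how many libraries of untreated wild type, untreated TRβKO or T3-treated wild type held a peak there, with the number of regions under each bar pair. The share higher reaches 23.6% where all 3 libraries of T3-treated wild type had a peak, and the share lower reaches 7.09% where all 3 untreated wild-type libraries had one.

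The balance of directions differed with the choice of regions. In the 3015 tested regions that peaks of at least 2 of the 12 other libraries overlap, 149 (4.94%) were higher and 25 (0.829%) lower, and the median log2 fold change was 0.33. Of all tested regions 2.07% were higher and 1.88% lower. A separate fit of the 3015 alone gave 175 higher and 30 lower. Reads in all counted regions were 1.96, 1.96 and 2.03 per 100 tags in wild type and 1.78, 1.89 and 1.77 in TRβKO, a difference of -0.171. Peaks of the compared libraries helped to choose the counted regions, which affects the direction of this difference. Over the regions supported by the other libraries alone the difference was 0.127, in the opposite direction (exact two-sided p = 0.1 for each). Untreated wild type had a peak in at least 2 libraries in 4921 regions and untreated TRβKO in 331, with 141 in both. Leaving out 1 wild-type library gave 2753, 1699 or 2721 regions (replicates 1 to 3), and leaving out 1 TRβKO library gave 198, 106 or 173, with 93, 68 or 88 in both. Depth differed between the groups, so these are not numbers of bound sites.

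**Figure D4:**
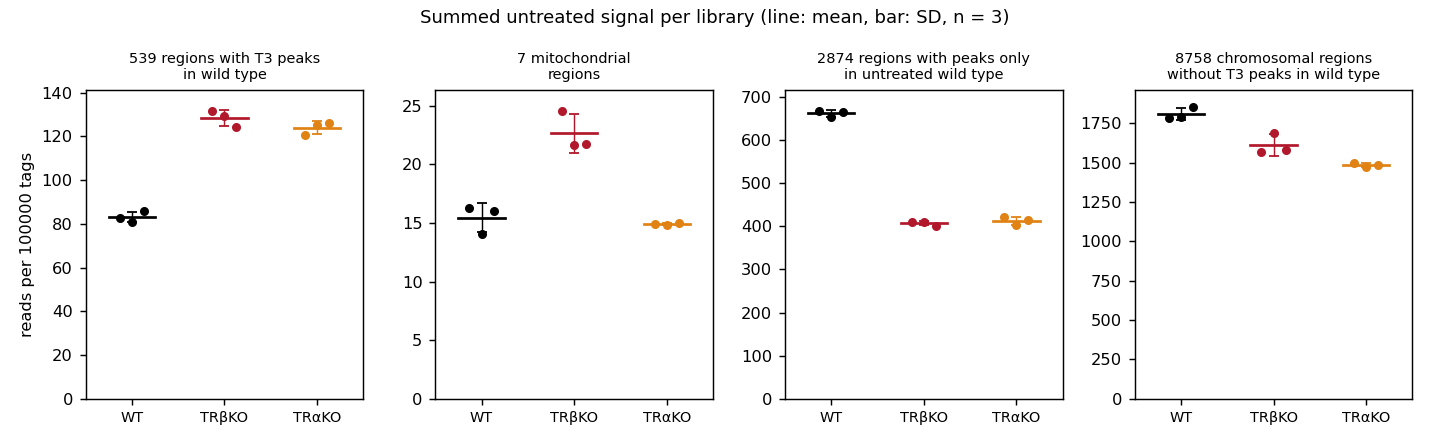
Reads per 100000 tags summed over 4 sets of regions in each untreated library of wild type, TRβKO and TRαKO, with the mean (line) and SD (bar) of 3 libraries. TRβKO lies above wild type in the 539 regions with T3 peaks and the 7 mitochondrial regions, and below it in the other sets.

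Position along the chromosomes differed between the called sets. Within 2 Mb of a chromosome start or of its last counted region lay 1104 tested regions, of which 8 were higher and 52 (4.71%) lower, with a median log2 fold change of -0.78. They held 29.5% of the lower regions and 11.8% of those tested. The lower regions there included those named above at gps2, acap1, kcnd1, ftsj1 and kcnh6. Those of fam83h and scrt2 lie among the last counted regions of chromosome 6, at a distance from the end not given here. Whether such falls belong to the gene or to the stretch around it was not tested. Over 10 Mb from both ends 145 of 5561 regions were higher and 67 lower, with a median of 0.09. Untreated TRαKO, against the same wild-type libraries, had medians of -0.69 within 2 Mb and -0.14 over 10 Mb. TRβKO against TRαKO had -0.06 and 0.19, and TRβKO against wild type with T3 had -0.93 and -0.13. Near thrb itself, within 5 Mb, 2 of 36 regions were higher, both of them in thrb as described, and 1 was lower. In the other tested regions 2.05% were higher and 1.88% lower. Within 1 kb of a gene end 3.01% of regions were higher and 2.69% lower. In gene bodies these shares were 1.64% and 1.67%.

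Several regions without a gene symbol had the steepest rises, and these were singled out after their values were seen. On chromosome 8, 7 of 18 tested regions between 118054872 and 118270680 were higher, the longest run of higher calls with gaps of at most 500 kb between them. The region at 118054872, over 10 kb from a gene, held 0.951, 1.58 and 1.70 CPM in wild type and 32.7, 29.7 and 32.2 CPM in TRβKO (4.46 ± 0.27, adjusted p = 2.74e-24). The TRβKO libraries stood far above all wild-type libraries and differed little among themselves. TRαKO held 0.602 CPM there, and TRβKO against TRαKO differed by 5.65 (adjusted p = 3.58e-25). With T3 the levels were 24.8 CPM in TRβKO and 3.01 in wild type (3.04, adjusted p = 1.92e-10). The other 6 regions of the run had log2 fold changes from 0.79 to 2.57, and the smallest, at 118260100 (adjusted p = 0.0498), was lost without each of the 6 libraries in turn (up to 0.265). TRβKO was above TRαKO past the threshold in 6 of the 7. Lower calls lay in runs too, the longest with 9 of 52 tested regions on chromosome 10 between 151221 and 1529592.

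A region on chromosome 6 at 68777784 held 0.146, 0.117 and 0.486 CPM in wild type and 3.29, 2.93 and 5.17 CPM in TRβKO (3.89 ± 0.75, adjusted p = 0.000322), with 0.0857 CPM in TRαKO. On an unplaced scaffold, the region at 6284 to 6891 held 4 reads over the wild-type libraries and 65 over the TRβKO libraries (5.16 ± 0.61, adjusted p = 9.47e-10). There TRαKO held 5.29 CPM and TRβKO 3.91 ± 1.24 CPM, and the difference between the knockouts did not pass (-0.43, adjusted p = 0.764). On chromosome 6 the difference between the knockouts was 5.24 (adjusted p = 0.000246).

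All 7 tested regions of the mitochondrial genome were higher in TRβKO, also singled out after the fact. Summed, they held 15.4 ± 1.22 reads per 100000 tags in wild type and 22.7 ± 1.67 in TRβKO (ratio 1.47), and 14.9 ± 0.0849 in TRαKO. The region at 16385 to 17027 held 8.34, 9.47 and 10.4 CPM in wild type and 30.3, 24.2 and 23.8 CPM in TRβKO (1.47 ± 0.13, adjusted p = 1.13e-14), and that at 15975 rose by 1.38 (adjusted p = 4.43e-09). The other 5 rose by 0.37 to 0.50 with adjusted p from 0.0022 to 0.0493, of which only the region at 13435 was called without any 1 library. The calls at 109, 2821, 4462 and 14474 were lost without TRβKO replicate 1 and wild-type replicate 2 among others (adjusted p up to 0.282). TRβKO was above TRαKO past the threshold in 6 of the 7, and with T3 it was above wild type past the threshold in all 7 (log2 fold changes 0.52 to 1.18). With no input library, more mitochondrial DNA in the sample and more of it immunoprecipitated cannot be told apart.

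The comparison of TRβKO with wild type under T3 shares no library with the untreated one. Its libraries were shallower, with 2.29 to 2.53 M tags in wild type and 2.76 to 3.28 M in TRβKO, so levels of a few CPM rest on few reads. There 54 regions were higher (0.578%) and 341 lower (3.65%). Of the 193 regions higher without T3, 108 (56.0%) also had a positive log2 fold change with T3, 13 were called higher and 11 lower. Of the 176 lower without T3, 148 (84.1%) had a negative one with T3, 35 were called lower and 1 higher. The median log2 fold change with T3 was 0.10 in the 193 and -1.17 in the 176, beside -0.30 over all tested regions. The shares by sign are to be read beside that general shift below 0. The test of the difference between the comparisons passed for 142 regions in the positive direction (1.52%) and 25 in the negative (0.268%). It passed for 74 of the 193 regions, 71 of them more positive without T3, and for 6 of the 176. The untreated libraries that chose the 193 and 176 regions also enter this difference, so these last counts are descriptions.

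At thrb, kdm6b and spag7 the untreated rise was not matched by one with T3. For the thrb region at 46932899 the levels with T3 were 40.2 CPM in wild type and 32.6 in TRβKO (-0.31, adjusted p = 0.37), and the difference between comparisons was 2.01 (adjusted p = 1.08e-06). For kdm6b at 147034252 they were 37.1 and 20.5 CPM, a fall of TRβKO below wild type (-0.86, adjusted p = 0.00473; difference 2.03, adjusted p = 5.3e-05). For spag7 they were 27.0 and 14.8 CPM (-0.87, adjusted p = 0.0262; difference 2.72, adjusted p = 9.15e-07). The genotype difference at kdm6b and spag7 thus had opposite directions without and with T3. Elsewhere the level with T3 was also above wild type without passing the test, as at epb41l4b, with 5.51 CPM in TRβKO and 2.57 in wild type (1.06, adjusted p = 0.211). Its difference between comparisons did not pass (adjusted p = 0.372), nor did those of gabbr2 (0.98 with T3, adjusted p of the difference 0.271) and zcchc8 (0.85 with T3, adjusted p of the difference 0.616).

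**Figure D5:**
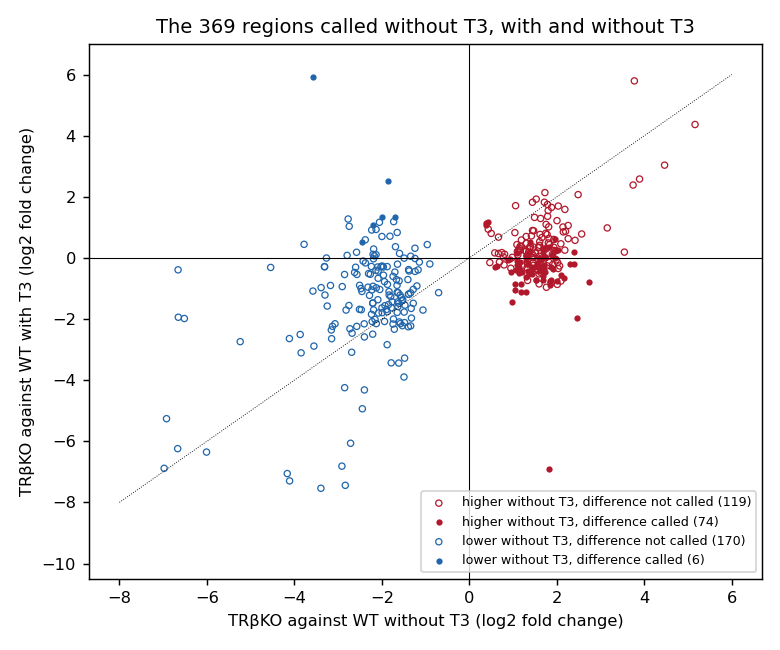
Log2 fold change of TRβKO against wild type with T3 (vertical) and without T3 (horizontal) at the 369 regions called without T3. Filled points are the 74 higher and 6 lower regions in which the difference between the comparisons passed the test, and the dotted line marks equal fold changes. The 193 regions higher without T3 (red) have a median of 0.10 on the vertical axis, and with T3 13 of them were called higher and 11 lower.

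The same regions were read in untreated TRαKO. TRαKO and TRβKO are each compared with the same 3 wild-type libraries, so their values are given side by side. The median log2 fold change against wild type of the 193 higher regions was 1.57 in TRβKO and 1.02 in TRαKO, and of these regions 73 were called higher in TRαKO, against 1.65% of all tested. For the 176 lower regions the medians were -2.09 in TRβKO and -0.90 in TRαKO. Of these 176, 31 were called lower in TRαKO, against 1.1% of all tested, and 9 had a positive log2 fold change there. The shared wild-type libraries helped to choose both sets. In redundant tags and fragment length TRαKO libraries were nearer to TRβKO than to wild type, and the part of this in these values was not tested. TRαKO levels were 4.40 CPM at thrb 46932899, 4.48 at thra 9096138, 5.38 at thibz, 3.95 at dot1l, 4.51 at kdm6b and 3.88 at insig1. In the same order, the log2 fold changes of TRαKO against wild type were 1.01, 1.08, 0.99, 1.75, 1.45 and 2.43. All passed in edgeR (adjusted p from 3.48e-08 to 0.00294). At gabbr2, epb41l4b and spag7 they were 1.82, 0.79 and 0.63 and did not pass (adjusted p from 0.0712 to 0.316). The direct test of TRβKO against TRαKO called 38 regions higher (0.407%) and 20 lower (0.214%) of all tested. It called 21 of the 193 higher, among them epb41l4b (1.47, adjusted p = 0.00677) and spag7 (1.22, adjusted p = 0.0253) and none of them lower. Of the 176 it called 9 lower and 2 higher. The TRβKO libraries that chose the 193 and 176 regions also enter this test, so these counts are descriptions. In the 539 regions with T3 peaks the direct test called 3 higher and 2 lower. At thrb 46932899 the difference was 0.69 (adjusted p = 0.19), and at the called regions of thra, thibz, dot1l, kdm6b and klf9 it lay between -0.40 and 0.02 without passing the test, which does not show that the knockouts are alike.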

How the data were processed

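ChIP-seq of TR in tadpole intestine gave 18 libraries, 3 in each of 6 groups that the labels set by genotype and treatment. Per the submitters' processing notes, the authors used Bowtie2 2.3.4.1, MACS2 2.1.1.20160309 and DiffBind. The MACS version in the file headers is 2.2.7.1, and per the file headers peaks were called in each library by itself without a control, keeping 1 tag at a position, for a genome of 2.7 Gb and q-values up to 0.05. The genome build is not given in the sources used here.

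The authors' DiffBind table, as deposited, gives unscaled counts of reads for 9867 regions (median width 453 bp) in all 18 libraries. The deposited peak lists give each peak's −log10 q-value, per the file headers, and this was used only to find which regions a peak overlaps (1 base or more). Their pileup signal, fold enrichment ratio and −log10 p-value, per the file headers, were not used. Chromosome codes of the count table were matched to names through the peaks.

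Library size was the number of tags after the duplicate filter, per the file headers. The counts of all 18 libraries were fitted with 6 group means by edgeR 4.0.16 (limma 3.58.1, R 4.3.3), robust quasi-likelihood, with no further scaling, after filterByExpr, which kept 9342 regions. Tests were two-sided with Benjamini-Hochberg adjustment over the 9342 and a threshold of 0.05, and adjusted p-values come from this fit. Fold changes are log2, with SE, TRβKO over wild type. Single values per library were compared by exact two-sided permutation tests. Alternatives were TMM, DESeq2 1.42.0, tags before the duplicate filter, thinning to 5.22 M tags (5 draws), other filters, the 6 libraries alone, a replicate block, leaving out each library and regions supported by other libraries. Python 3.11.15, pandas 2.3.3, numpy 2.4.6, scipy 1.17.1 and matplotlib 3.10.9 were used.

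A region was assigned to the protein-coding gene it overlaps, or else the nearest within 10 kb, from RefSeq positions of UCB_Xtro_10.0. Of the regions, 10.2% lay within 1 kb of a gene end, against 6.41 to 6.66% after shifts of the gene positions. Coordinates are those of the authors' files. Identifiers beginning with LOC were treated as having no symbol.

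The 15 gene lists, the members and the tests were chosen with earlier results of these data known. Named are the 12 largest rises and 12 largest falls, by the conditions given with them, every tested region of thra, thrb, thibz, klf9, dot1l, kdm6b, ezh2, rara and nr3c2, up to 4 called members of each list and every member of a count of 5 or fewer. Chromosome runs, mitochondrial regions, the steepest regions and sox4 were chosen after their values were seen. Same-numbered wild-type and TRβKO libraries correlated at 0.031 or less in their deviations from the group means, so replicate numbers were not taken as pairs. Only the spread between these samples enters the p-values.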

Additional observations from a re-analysis of the deposited data

Results flagged for a closer look

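At 23 of the 71 named regions the difference between TRβKO and wild type without T3 was not the same as with T3, by the edgeR test of the difference between the comparisons (adjusted p under 0.05). Over all 9342 tested regions that test passed for 142 (1.52%) in the positive direction and 25 (0.268%) in the negative. Many of the 71 were named for an untreated call, so the 23 is a description. Values are log2, the untreated difference minus that with T3. The excess without T3 was 2.01 and 1.84 at the thrb regions at 46932899 and 46698245, 1.31 at thra (9096138), 1.41 at thibz, 1.94 at dot1l, 2.03 at kdm6b, 2.04 at ezh2, 1.44 at sox4, 1.79 at gatad2a and 1.72 at znrf3. Among the genes named for the size of their rise it was 2.65 at rgs10, 1.76 at insig1, 1.72 at gsdme, 2.26 at leng1, 2.72 at spag7 and 1.45 at slc16a1. Outside named genes it was 1.34 in the chromosome 8 region at 118139275.

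At scrt2 and gata5 the difference was -3.28 and -3.36: without T3 TRβKO lay below wild type, and with T3 its log2 fold change was 1.08 and 1.35, neither past the threshold (adjusted p = 0.433 and 0.305). With T3, the scrt2 region held 1.61, 1.58 and 0 CPM in wild type and 1.39, 3.66 and 1.81 CPM in TRβKO. Those libraries held 2.29 to 3.28 M tags, so these are few reads. On the mitochondrial genome the difference was -0.75, -0.75 and -0.72 in the regions at 109, 2821 and 14474, where TRβKO exceeded wild type by more with T3 than without, and 0.86 in the region at 15975. Part of these regions were chosen for their untreated difference, which enters this test. All flags share the 6 untreated libraries.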

How the results depend on the processing

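Counts are given as higher and lower regions in TRβKO, 193 and 176 as reported. They were 321 and 113 with TMM scaling, 379 and 182 with DESeq2, 126 and 289 with tags before the duplicate filter, 86 and 131 with a mean of at least 20 reads, 345 and 626 in a fit of the 6 libraries alone, and 104 and 93 (medians of 5 draws) after thinning. In a separate fit of the regions supported by the other libraries they were 175 and 30. Leaving out 1 library gave 104 to 147 higher and 67 to 112 lower. Replicate numbers as a block gave 217 and 444. Same-numbered libraries correlated at 0.031, 0.012 and 0.011 in their deviations from the group means, and the other pairs at -0.024 to 0.0122. Only wild-type replicate 3 correlated better with another number, TRβKO replicate 2 (0.0122 against 0.0111).

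Of the gene lists, 15 regions were higher and 3 lower as reported. These were 16 and 0 with TMM, 8 and 6 with the replicate block, 6 and 0 after thinning, and 7 to 11 and 0 to 3 without 1 library. The lists hold 138 regions. Over all 9342 tested regions the replicate block gave 217 and 444, and the counts of the other settings are given above. TMM called 209 higher and 81 lower of the 6276 tested regions with a gene. In regions supported by the other libraries 1 was lower. Counting only regions that overlap a gene body gave 13 and 3.

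The difference in reads per 100 tags, -0.171, was -0.340 with all tags, -0.209 to -0.148 without 1 library, and 0.127 in regions supported by the other libraries. Regions with a peak in at least 2 libraries, 4921 in wild type, 331 in TRβKO and 141 in both, were 522, 71 and 34 with −log10 q of at least 5, 1126, 73 and 44 with a peak in all 3 libraries, and 1699 to 4921, 106 to 331 and 68 to 120 without 1 library. The cause of these changes was not tested. None of the named regions changed direction past the threshold under the alternatives in which it was tested, which were all but a mean of at least 20 reads (40 of 71 tested) and regions supported by the other libraries (42 of 71). Thinning left 20 below the threshold, tags before the duplicate filter 11, the replicate block 9, the 6 libraries alone 5, TMM 3, DESeq2 1 (which brought another 1 above it) and leaving out 1 library 16 to 23. TRβKO depth limits the falls: 24 of the 176 regions rest on 3 or fewer TRβKO reads.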
